A study of Homo sapiens with 14 samples.

Results

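The genes described here encode telomerase and the shelterin complex: TERT, TERC, DKC1, TERF1, TERF2, TERF2IP, POT1, TINF2 and ACD, 9 of the 62757 genes in the deposited count files. They were chosen by the measured values of TERT, which was higher with both ADAR1 hairpins and in cisplatin-resistant A2780 cells. The other 8 were added as its partners and matched by Ensembl identifier. The values of TERT in those 3 comparisons are therefore given as a description, with no test.

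RNA was sequenced from OVCAR3 and A2780, established human ovarian cancer cell lines, to study RNA editing in resistance to cisplatin. Each line had a parental group labelled WT and a group labelled DDP, its cisplatin-resistant derivative. A further 3 groups carried the OVCAR3-DDP label and a short hairpin RNA. Of these, shNC serves as the reference below, and sh1 and sh2 are labelled with the genotype shADAR1. All hairpin groups therefore share the resistant background as labelled, and none is parental. Each of the 7 groups had 2 libraries, 14 in all. The labels do not say whether replicates came from separate cultures, so the p-values reflect only the spread between these libraries, which may be technical.

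Telomerase lengthens chromosome ends by copying a template in its own RNA. TERT is the reverse transcriptase, TERC the template RNA, and dyskerin, from DKC1, binds the RNA and keeps it stable. Shelterin coats the telomeric repeat, hides it from the DNA damage response and controls access of telomerase. In most somatic tissues TERT is silent and in most carcinomas it is switched on again, whereas shelterin genes are transcribed broadly.

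The promoter of TERT is shown first, because the values of TERT chose the members, and that of TINF2 beside it as a shelterin gene. Both are the 250 bases before the first RefSeq start of the gene, read 5′ to 3′ on the coding strand of GRCh38.p14. Capitals mark the E-box CACGTG, the motif read by MYC and MAX, and the GC box GGGCGG, the motif read by SP1, searched on both strands.
TERT, chr5:1295069-1295318, minus strand: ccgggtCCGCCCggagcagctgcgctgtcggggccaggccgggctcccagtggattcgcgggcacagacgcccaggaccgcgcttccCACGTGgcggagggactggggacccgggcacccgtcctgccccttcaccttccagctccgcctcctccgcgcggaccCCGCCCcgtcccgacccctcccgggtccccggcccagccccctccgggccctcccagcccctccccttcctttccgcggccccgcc
TINF2, chr14:24242675-24242924, minus strand: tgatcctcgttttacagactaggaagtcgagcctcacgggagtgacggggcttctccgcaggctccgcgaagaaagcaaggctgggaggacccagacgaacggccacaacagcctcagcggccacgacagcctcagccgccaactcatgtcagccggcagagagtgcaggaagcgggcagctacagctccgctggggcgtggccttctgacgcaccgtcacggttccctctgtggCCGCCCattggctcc
In the TERT window 1 E-box had its first base at position −163, counted back from the start, and GC boxes began at −244 and −86. The TINF2 window held 1 GC box, at −15, and no E-box. GC content was 78.8% in the TERT window and 64.4% in that of TINF2. Among 35116 promoter windows of the same length, 6.34% held the E-box and 42.6% the GC box. RefSeq promoter entries matched 6 of the 9 members (TERT, DKC1, TERF2IP, POT1, TINF2 and ACD), and of these only TERT had the E-box in its window. These matches are letters in a window and say nothing about binding.

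Libraries held 20428538 to 49115255 counts on genes, and the 6 hairpin libraries were the shallowest. Mitochondrial messenger RNA made up 0.726% to 0.947% of counts with a hairpin and 2.31% to 3.51% without. Levels are given below as CPM, counts divided by the library's assigned total and scaled to a fixed depth, as mean ± SD with n = 2. ADAR, the gene that encodes ADAR1, stood at 423 ± 34.1 CPM with shNC, 272 ± 24.5 with sh1 and 115 ± 0.989 with sh2, so sh2 lowered its target further. The libraries labelled OVCAR3-DDP differed from every other OVCAR3 group in a list of 12 ovarian or epithelial carcinoma markers: 4 of the 12 reached 1 CPM there, against 10 in parental OVCAR3 and with each hairpin. KRT7, an epithelial keratin, stood at 1083 CPM in parental OVCAR3, 0.246 in OVCAR3-DDP and 1006 with shNC, and KRT19 and CD44 had 0 counts in OVCAR3-DDP. The keratins KRT8 and KRT18 were lower there but present, KRT8 at 403 CPM against 1423 in parental OVCAR3 and KRT18 at 131 against 821. WT1 went the other way, with 19.0 CPM in OVCAR3-DDP and 0 counts in parental OVCAR3 and with shNC. Summed over the list, levels were 4485 to 4905 CPM in parental OVCAR3, 539 to 575 in OVCAR3-DDP, 4713 to 6046 in the hairpin libraries and 198 to 306 in A2780. Each comparison below of the libraries labelled OVCAR3-DDP rests on libraries with these differences, whose part in the results was not tested, and shNC is therefore also set against parental OVCAR3.

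TERT was lowest in the hairpin control and highest in resistant A2780. TERT (ENSG00000164362, chromosome 5, 1253147 to 1295069, minus strand, GRCh38) had 44 and 37 counts in the shNC libraries, 188 and 151 with sh1, and 121 and 182 with sh2. In the other libraries it had 182 and 303 counts in parental OVCAR3, 569 and 586 in OVCAR3-DDP, 212 and 227 in parental A2780, and 702 and 884 in A2780-DDP. No library lacked TERT, and the 4 libraries with an ADAR1 hairpin all lay above both shNC libraries.
In CPM, TERT stood at 23.6 ± 4.67 in A2780-DDP, 16.7 ± 0.379 in OVCAR3-DDP and 7.51 ± 0.572 with sh1. The next groups lay close together, at 6.87 ± 0.102 CPM in parental A2780, 6.81 ± 1.26 with sh2 and 5.62 ± 0.774 in parental OVCAR3, and shNC had 1.73 ± 0.175. Libraries of sh2 overlapped those of parental A2780 and of parental OVCAR3, the neighbours above and below it in this order. In such bulk libraries fewer cells that express a gene and less RNA per cell cannot be told apart. The highest group mean was 13.6 times the lowest, against 1.86 times for POT1 to 3.98 times for TERF2 among the other 7 genes with counts enough to test. Both extremes of TERT are groups whose TERT values chose the members. Its wider range follows in part from that choice and is no separate result.

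**Figure D1:**
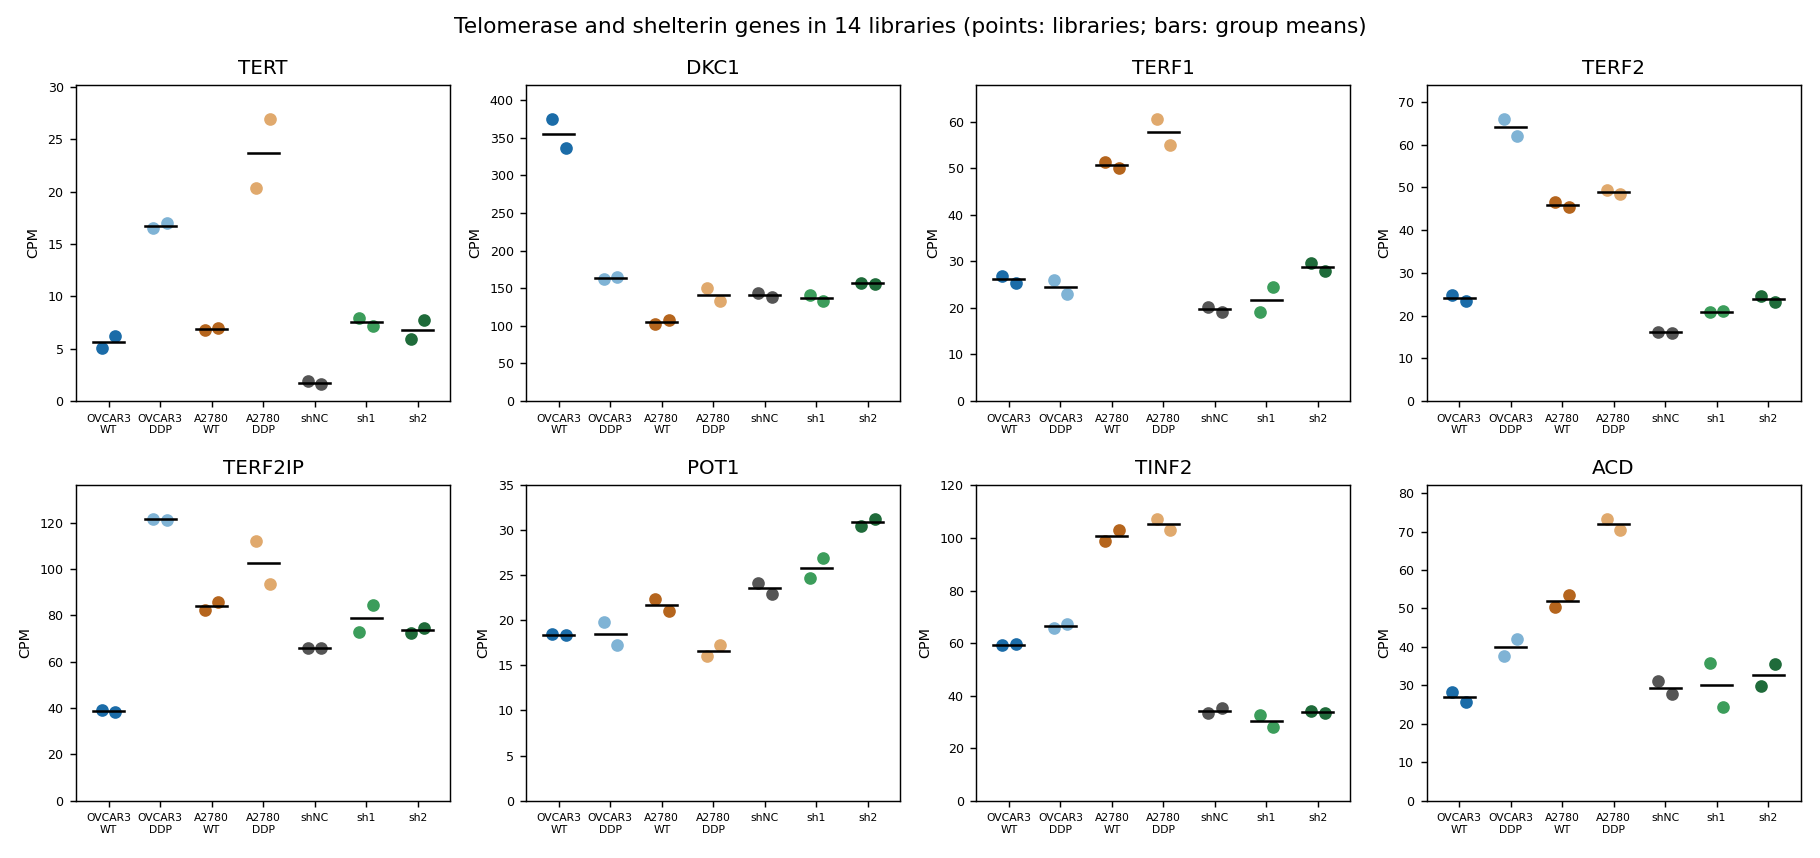
Level in CPM (vertical axis, from 0) of the 8 measurable members in each of the 14 libraries (points) with group means (bars), by group along the horizontal axis. TERT with sh1 and sh2 lies near the parental levels of 5.62 and 6.87 CPM, and shNC lies below every other library at 1.73 ± 0.175 CPM (SD, n = 2).

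As a description, TERT was higher than in shNC by 2.04 on the log2 scale with sh1 (SE 0.24, 4.10-fold) and by 1.87 with sh2 (SE 0.24, 3.65-fold). In A2780 it was higher in DDP than in WT by 1.79 (SE 0.16, 3.46-fold). These are the contrasts that chose the members, and the hairpin contrasts share the shNC libraries. The hairpins themselves were compared by edgeR's quasi-likelihood test, and TERT differed by −0.17 (sh2 minus sh1, 95% interval −0.60 to 0.27, adjusted p = 0.742). High TERT in both hairpin groups was part of how the members were chosen, so this test is not independent of that choice. ADAR was lower with sh2 by 1.27 on the log2 scale. It stood at 272 CPM with sh1 and at 115 CPM with sh2, beside TERT means of 7.51 and 6.81. Without a hairpin, ADAR stood at 502 ± 79.8 CPM in parental OVCAR3, 343 ± 10.1 in OVCAR3-DDP, 566 ± 22.5 in parental A2780 and 572 ± 94.5 in A2780-DDP. Whether TERT follows the level of ADAR was not tested.
Set against parental OVCAR3, TERT had opposite signs in the groups that share the OVCAR3-DDP label. It rose in the OVCAR3-DDP libraries by 1.39 (SE 0.16, adjusted p = 4.88e-06, edgeR). With shNC the difference was −1.51 (SE 0.23), given as a description with no test because low TERT in the shNC libraries was part of how the members were chosen. Both comparisons share the parental libraries. Resistance as labelled, the hairpin, the library set and the lower mitochondrial share of the shNC libraries cannot be told apart there. The parental lines themselves did not pass the test for TERT (0.23, 95% interval −0.13 to 0.60, adjusted p = 0.239, edgeR). The parental A2780 libraries also took part in choosing the members, so this test is not independent of that choice.

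**Figure D2:**
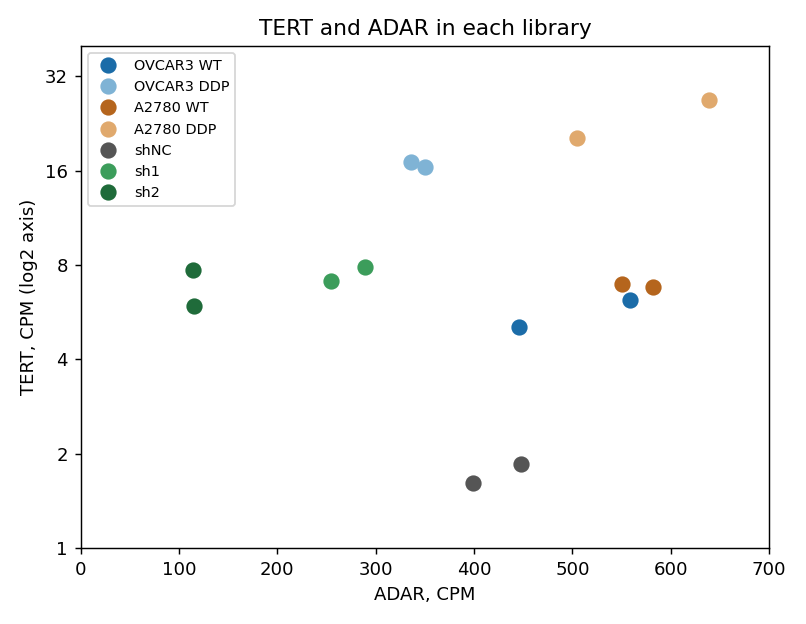
TERT in CPM (vertical log2 axis) against ADAR in CPM (horizontal axis), 1 point per library, coloured by group. The sh1 and sh2 libraries sit at different ADAR levels, 272 and 115 CPM on average, and at similar TERT levels, while shNC lies lowest in TERT at an ADAR mean of 423 CPM.

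TERC, the template RNA, could not be followed with these counts. TERC (ENSG00000270141, chromosome 3, 169764520 to 169765060, minus strand) had 0 counts in 12 libraries and 2 counts in each of 2 libraries, the second replicates of OVCAR3-DDP and shNC. The files also count RF00024 (ENSG00000277925), a second model of the same RNA on the same strand, which shares 438 of the 541 exon bases of TERC and had 0 counts in every library. A read that falls on both models is ambiguous to a counter of this kind and is given to neither. Whether that overlap gave the zeros was not tested. The counts give no level for TERC, and it entered no test.

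DKC1, dyskerin, was the member with the strongest difference between lines. DKC1 (ENSG00000130826, X chromosome, 154762742 to 154777689, plus strand) stood at 375 and 336 CPM in parental OVCAR3, 162 and 164 in OVCAR3-DDP, 102 and 108 in parental A2780, and 149.6 and 133 in A2780-DDP. With shNC it stood at 144 and 138 CPM, with sh1 at 141 and 133, and with sh2 at 157 and 156. Parental OVCAR3 stood clear of all other libraries, parental A2780 lay lowest, and the other 5 groups lay between 133 and 164 CPM. DKC1 was lower against parental OVCAR3 in OVCAR3-DDP (−1.30, SE 0.10, adjusted p = 8.29e-08, edgeR), with shNC (−1.15, SE 0.11, adjusted p = 2.54e-09) and in parental A2780 (−1.81, SE 0.10, adjusted p = 3.82e-09). In A2780 it rose with resistance by 0.43 (SE 0.10, adjusted p = 0.00416, edgeR), which without the first parental A2780 library became 0.42 with adjusted p = 0.0504. The change in OVCAR3 minus that in A2780 was −1.73 (SE 0.14, adjusted p = 2.80e-07, edgeR). Per kilobase of exon, the ratio of DKC1 to TERT ran from 6.72 ± 1.88 in A2780-DDP to 70.3 ± 15.1 in parental OVCAR3 and 89.2 ± 6.25 with shNC. It was 20.02 ± 0.664 with sh1 and 25.6 ± 4.82 with sh2. The small nucleolar RNAs SNORA36A and SNORA56, which lie within DKC1, were listed at 0 counts in every library.

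TERF1 and TERF2 encode the proteins that bind duplex telomeric repeats, TRF1 and TRF2. TERF2 (ENSG00000132604, chromosome 16, 69355561 to 69408571, minus strand) stood at 24.8 and 23.4 CPM in parental OVCAR3, 66.1 and 62.2 in OVCAR3-DDP, 46.5 and 45.4 in parental A2780, and 49.5 and 48.5 in A2780-DDP. The hairpin libraries had the lowest levels of TERF2 with shNC, 16.2 and 16.01 CPM, followed by sh1 with 20.8 and 21.0 and sh2 with 24.5 and 23.1. Like TERT and TERF1, TERF2 was highest in a DDP group without a hairpin and lowest with shNC. It rose in OVCAR3-DDP by 1.24 (SE 0.09, adjusted p = 7.83e-08, edgeR). With shNC it was lower than in parental OVCAR3 (−0.39, SE 0.12, adjusted p = 0.00906, edgeR), and that call was lost without the first parental library (adjusted p = 0.0700) and without either shNC library (0.0590 and 0.0547). In A2780 the difference was 0.10 (95% interval −0.10 to 0.31, adjusted p = 0.434, edgeR), and the difference between lines was 1.13 (SE 0.13, adjusted p = 8.73e-06).
TERF1 (ENSG00000147601, chromosome 8, 73008864 to 73048122, plus strand) was set apart by cell line more than by treatment. It stood at 51.4 and 50.1 CPM in parental A2780 and 60.7 and 55.02 in A2780-DDP, against 26.9 and 25.4 in parental OVCAR3 and 26.0 and 23.0 in OVCAR3-DDP. With shNC it stood at 20.3 and 19.1 CPM, with sh1 at 19.2 and 24.4, and with sh2 at 29.7 and 27.9. Every A2780 library exceeded every OVCAR3 library, and the parental difference of 0.91 passed (SE 0.10, adjusted p = 4.59e-06, edgeR). In OVCAR3-DDP TERF1 was lower by a small margin (−0.27, SE 0.11, adjusted p = 0.0344, edgeR), with libraries that overlapped in CPM, and the call ended under 7 of the 12 other settings and left-out libraries tried. Its processed pseudogenes TERF1P1 to TERF1P5 had at most 3 counts in any library. Per kilobase, TERF1 per TERF2 was 0.692 ± 0.00150 in parental OVCAR3 and 0.243 ± 0.0106 in OVCAR3-DDP, and 0.663 to 0.777 in the other 5 groups.

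TERF2IP encodes RAP1, which reaches telomeres by binding TRF2. TERF2IP (ENSG00000166848, chromosome 16, 75647786 to 75761872, plus strand) stood at 39.3 and 38.4 CPM in parental OVCAR3, 122 and 121 in OVCAR3-DDP, 82.3 and 85.6 in parental A2780, and 112 and 93.5 in A2780-DDP. With shNC it stood at 65.9 and 66.1 CPM, with sh1 at 73.0 and 84.4, and with sh2 at 72.5 and 74.7. Parental OVCAR3 was lowest, and every other library lay above it. TERF2IP rose against parental OVCAR3 in both groups that carry the resistant label, by 1.47 in OVCAR3-DDP (SE 0.10, adjusted p = 3.89e-08, edgeR) and by 0.96 with shNC (SE 0.11, adjusted p = 1.71e-07). In A2780-DDP it rose by 0.30 (SE 0.10, adjusted p = 0.0354, edgeR), a call lost without either parental library (adjusted p = 0.177 and 0.0753) or without the first DDP library (0.224). The lines differed in this change by 1.17 (SE 0.15, adjusted p = 1.61e-05, edgeR). Per kilobase, TERF2IP per TERF2 was 2.69 to 3.49 in the 4 groups without a hairpin and 5.15 to 6.81 in the 3 groups with one. KARS, on the opposite strand, shares 176 exon bases with TERF2IP and had 4283 to 10121 counts. The strand setting of the counter is not given in the sources used here, so its part in the level of TERF2IP was not tested.

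POT1 binds the single-stranded end of the repeat, and ACD encodes TPP1, its partner, which brings telomerase to the telomere. POT1 (ENSG00000128513, chromosome 7, 124822386 to 124929983, minus strand) stood at 18.4 and 18.4 CPM in parental OVCAR3, 19.8 and 17.2 in OVCAR3-DDP, 22.4 and 21.1 in parental A2780, and 16.03 and 17.3 in A2780-DDP. With shNC it stood at 24.2 and 22.9 CPM, with sh1 at 24.6 and 26.9, and with sh2 at 30.5 and 31.3. POT1 was the steadiest of the 8 members and, unlike the rest, had its 3 highest group means in the hairpin groups. With shNC it rose by 0.55 against parental OVCAR3 (SE 0.13, adjusted p = 0.000924, edgeR). In A2780-DDP it was lower (−0.37, SE 0.12, adjusted p = 0.0251, edgeR), a call that ended when any 1 of the 4 A2780 libraries was left out (adjusted p = 0.0815 to 0.208), with no low-count filter (0.0796) and in DESeq2's Wald test (0.0645). POT1 shares 111 exon bases with the antisense gene POT1-AS1, which had 3 to 102 counts.
ACD (ENSG00000102977, chromosome 16, 67657512 to 67660815, minus strand) stood at 28.3 and 25.8 CPM in parental OVCAR3, 37.7 and 42.0 in OVCAR3-DDP, 50.3 and 53.4 in parental A2780, and 73.4 and 70.4 in A2780-DDP. It rose in A2780-DDP by 0.48 (SE 0.10, adjusted p = 0.00256, edgeR) and in OVCAR3-DDP by 0.38 (SE 0.10, adjusted p = 0.00540). The second of these was lost without the second OVCAR3-DDP library (0.30, adjusted p = 0.0804). With a hairpin, ACD ranged from 24.4 to 35.8 CPM, and those extremes were the 2 sh1 libraries. Its difference from parental OVCAR3 with shNC was 0.31 (adjusted p = 0.0883, edgeR) and passed under 4 of the 12 other settings. ACD shares 58 exon bases with CARMIL2 on the opposite strand.

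TINF2 encodes TIN2, which links the duplex binders to TPP1 and POT1. TINF2 (ENSG00000092330, chromosome 14, 24239643 to 24242674, minus strand) stood at 59.1 and 59.7 CPM in parental OVCAR3, 65.9 and 67.4 in OVCAR3-DDP, 98.9 and 103 in parental A2780, and 107 and 103 in A2780-DDP. With shNC it stood at 33.3 and 35.2 CPM, with sh1 at 32.7 and 27.9, and with sh2 at 34.1 and 33.4. All 6 hairpin libraries therefore lay below all 8 others. TINF2 was lower with shNC than in parental OVCAR3 (−0.61, SE 0.11, adjusted p = 9.36e-05, edgeR). Against its parental group it differed by −0.01 in OVCAR3-DDP (95% interval −0.20 to 0.18, adjusted p = 0.920, edgeR) and by 0.07 in A2780-DDP (95% interval −0.12 to 0.26, adjusted p = 0.579). The OVCAR3 sign turned to positive under 8 other settings or left-out libraries, up to 0.12.

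Summed per kilobase of exon, the 6 shelterin messenger RNAs fell into a low set and a high set of groups. The sum was 50.4 ± 0.473 CPM per kilobase with shNC, 52.1 ± 0.877 in parental OVCAR3, 54.4 ± 0.669 with sh1 and 57.1 ± 1.34 with sh2. It was 90.2 ± 0.189 in OVCAR3-DDP, 95.7 ± 2.01 in parental A2780 and 109.6 ± 6.11 in A2780-DDP. The makeup of similar sums differed: TINF2 supplied 42.0% ± 0.989 of the sum in parental OVCAR3 and 25.0% ± 1.22 with shNC, while TERF2IP supplied 22.0% ± 0.0257 and 38.8% ± 0.450. TINF2 per POT1 was 7.02 to 13.8 without a hairpin and 2.38 to 3.16 with one. These values divide by all annotated exon bases of each gene, 8831 for TERF1 and 2712 for TINF2, and depend on that choice. They are not shares of messenger RNA molecules or of protein.

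**Figure D3:**
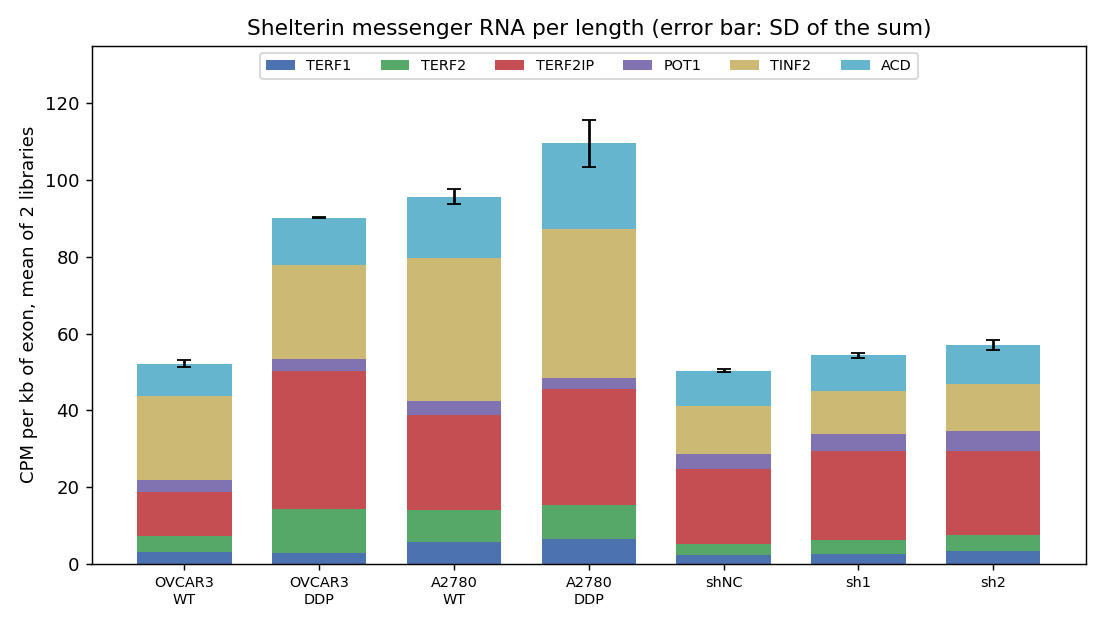
Mean level of the 6 shelterin messenger RNAs in CPM per kilobase of exon (vertical axis, stacked from 0), by group, with the SD of the sum over 2 libraries. OVCAR3-DDP and both A2780 groups reach 90.2 to 109.6, parental OVCAR3 and the hairpin groups 50.4 to 57.1.

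The calls are counted below for each comparison beside the share of all genes called. All 8 members with enough counts passed the low-count filter in each fit, and TERC did not. In OVCAR3-DDP against parental OVCAR3, 6 of 8 members passed, a share near that of all 23031 genes tested, 68.5%. Of these, 4 rose (TERT, TERF2, TERF2IP and ACD), against 33.4% of all genes, and DKC1 and TERF1 were lower, against 35.2%. The median log2 difference was 0.19 over the members and −0.03 over all genes. In A2780, where TERT chose the members, 4 of the other 7 passed against 35.3% of all genes. DKC1, TERF2IP and ACD rose (18% of genes) and POT1 was lower (17.3%). Leaving out 1 A2780 library left as few as 1 of these calls.
The difference of DDP from parental libraries, by label, itself differed between lines for 4 of 7 members, DKC1, TERF1, TERF2 and TERF2IP. Of all genes 53.8% did so, 26.9% higher in OVCAR3 and 26.9% lower. The OVCAR3 side rests on the libraries with the marker differences given above, whose part was not tested. TERF2 and TERF2IP changed more upward in OVCAR3, and DKC1 and TERF1 more downward. TERF1 differed by −0.47 (SE 0.15, adjusted p = 0.0151, edgeR), a call lost under upper-quartile scaling (adjusted p = 0.0515), in the fit of all libraries (0.0516) and without the second OVCAR3-DDP library, either parental A2780 library or the first A2780-DDP library (0.0779 to 0.0969). For TERT the difference between lines was −0.40 (95% interval −0.89 to 0.09), given without a test.
Between the parental lines 6 of 8 members passed, where 66% of all genes did. TERT, which did not pass, is among the 8, and its test is not independent of the choice of the members. TERF1, TERF2, TERF2IP, TINF2 and ACD were higher in A2780 by 0.71 to 1.06, against 33.7% of all genes, and DKC1 was lower, against 32.3%. This comparison kept 6 calls under every alternative tried.

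**Figure D4:**
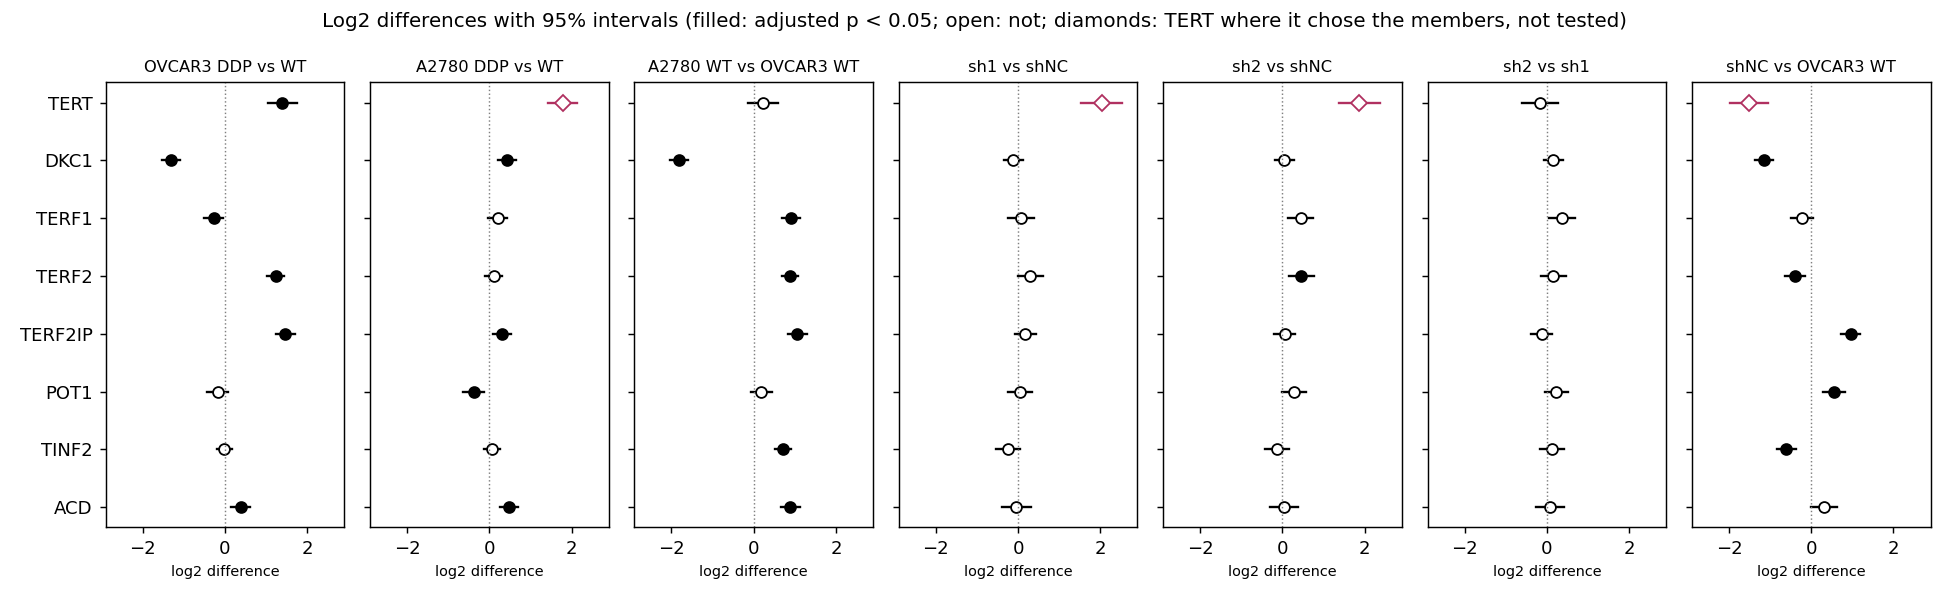
Log2 difference of each of the 8 testable members (rows) with its 95% interval in 7 comparisons (panels). Filled circles passed at adjusted p under 0.05, open circles did not, and diamonds mark TERT where its values chose the members, shNC against parental OVCAR3 included. In the panel for sh1 against shNC no member passed, while TERT lay at 2.04 without a test.

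With the ADAR1 hairpins, the partners of TERT gave 0 calls with sh1 and 1 with sh2, few enough to say nothing particular about them. In sh1 against shNC 0 of 7 members passed in edgeR, where 3.81% of the 19044 genes tested did, 1.96% higher and 1.85% lower. None reached an unadjusted p under 0.05, and DESeq2's Wald test and limma-voom also gave 0 calls. Differences ran from −0.25 for TINF2 (95% interval −0.54 to 0.04) to 0.30 for TERF2 (95% interval −0.00 to 0.60), with adjusted p of 0.327 and 0.262 in edgeR. Without the first sh1 library, TINF2 (−0.40) and ACD (−0.37) passed with adjusted p of 0.0183 and 0.0448.
In sh2 against shNC 1 of 7 members passed, where 14.3% of all genes did, 7.23% higher and 7.04% lower. TERF2 rose by 0.46 (SE 0.14, adjusted p = 0.0401, edgeR), and the call ended when any 1 of the 4 libraries was left out (adjusted p = 0.132 to 0.335). TERF1 was close to the threshold at 0.44 (SE 0.15, adjusted p = 0.0525, edgeR) and passed under 3 other settings, among them DESeq2's Wald test (0.0442). DKC1 differed by 0.05 (95% interval −0.18 to 0.28) and TERF2IP by 0.05 (95% interval −0.20 to 0.31). Between sh2 and sh1 0 of 8 members passed in edgeR, where 1.92% of genes did, 0.667% higher and 1.25% lower. TERT is among these 8, and its test there is not independent of the choice of the members. TERF1 alone had an unadjusted p under 0.05, and DESeq2's Wald test and limma-voom gave 0 calls. Without the second sh1 library TERF1 passed, at 0.55 with adjusted p = 0.00376 in edgeR.
With shNC against parental OVCAR3, 5 of the 7 members other than TERT passed, where 51.5% of the 24193 genes tested did. TERF2IP and POT1 rose, against 25.1% of all genes, and DKC1, TERF2 and TINF2 were lower, against 26.5%. Side by side with the OVCAR3-DDP libraries, which share the parental group, DKC1 was lower and TERF2IP higher in each, while TERF2 had opposite signs. The log2 differences here are scaled by TMM, and the median gene lay 0.18 higher for OVCAR3-DDP against parental and 0.19 lower for shNC against parental (−0.19) when CPM were left unscaled. A member's log2 value therefore departs by that much from the ratio of its CPM means.

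Around the members stand 5 lists of related genes, whose counts are given beside the shares of all genes and were not tested as lists. Of 16 genes of telomerase assembly and TERC processing, 5 were higher and 10 lower in OVCAR3-DDP, where 33.4% and 35.2% of all genes were (median −0.47, all genes −0.03). SHQ1, a chaperone of dyskerin, rose by 0.74, and NOLC1, a nucleolar partner of dyskerin complexes, was lower (−1.44). With shNC against parental OVCAR3, 15 of 16 were lower and 0 higher, where 26.5% and 25.1% of all genes were (median −0.92, all genes 0). PINX1, an inhibitor of telomerase, stood at 1.02 CPM with shNC and 13.6 in parental OVCAR3 (−3.53, SE 0.31, adjusted p = 7.58e-10, edgeR). TGS1, which caps TERC, was lower by 1.80 on that scale (−1.80). In A2780-DDP 5 of 16 passed, against 35.3% of all genes: NOLC1 (0.67) and NAF1 (0.44) rose, and ZCCHC8 (−1.30), TOE1 (−0.45) and TGS1 (−0.44) were lower. NAF1 is an assembly factor, and ZCCHC8 and TOE1 act in processing the telomerase RNA. With sh2, TGS1 (0.74), ZCCHC8 (0.71) and COIL (0.49), the scaffold of Cajal bodies, rose and none was lower, against 7.23% and 7.04% of all genes. With sh1 only NHP2 passed (−0.46, adjusted p = 0.0494, edgeR), against 3.81% of all genes.
Of 17 genes tested for telomere replication and end processing, 5 rose with sh2 and none was lower, against 7.23% and 7.04% of all genes (median 0.18, all genes 0.00). BLM, a helicase of the RecQ family, stood at 28.9 CPM with shNC, 45.0 with sh1 and 64.003 with sh2, and rose by 0.56 and 1.04 (adjusted p = 0.0318 and 0.000171, edgeR). PRIM2, a primase subunit, rose with sh2 by 0.77 and RPA2, a subunit of the single-strand binder RPA, by 0.75. In A2780-DDP 6 rose, with FEN1 at 0.86 and PRIM2 at 0.75, and 2 were lower, CTC1 (−0.68) of the CST complex and TIMELESS (−0.29), against 18% and 17.3% of all genes. In OVCAR3-DDP 4 rose and 6 were lower, against 33.4% and 35.2% of all genes, and with shNC against parental 2 rose and 11 were lower, against 25.1% and 26.5%. STN1, of the CST complex, rose in both, by 2.01 and 3.53, from 0.575 CPM in parental OVCAR3.
Of 18 telomere-associated regulators outside shelterin, 4 rose and 11 were lower in OVCAR3-DDP, against 33.4% and 35.2% of all genes (median −0.71, all genes −0.03). RAD50, of the MRN complex, stood at 0.913 CPM there and 6.79 in parental OVCAR3 (−3.07), and DAXX, a histone chaperone that works with ATRX, rose by 1.06. In A2780-DDP 3 rose and 3 were lower, against 18% and 17.3% of all genes, with ATRX at −0.64 and TNKS, the tankyrase that modifies TRF1, at −0.36. With sh1 XRCC6, the Ku70 subunit, was lower (−0.48, adjusted p = 0.0142, edgeR), where 1.85% of all genes were. With sh2 4 of the 18 rose, against 7.23% of all genes, among them FBXO4 (0.77), a ubiquitin ligase subunit that targets TRF1, NBN (0.64) and ATR (0.47). With shNC against parental OVCAR3, 4 rose and 8 were lower, against 25.1% and 26.5% of all genes.

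**Figure D5:**
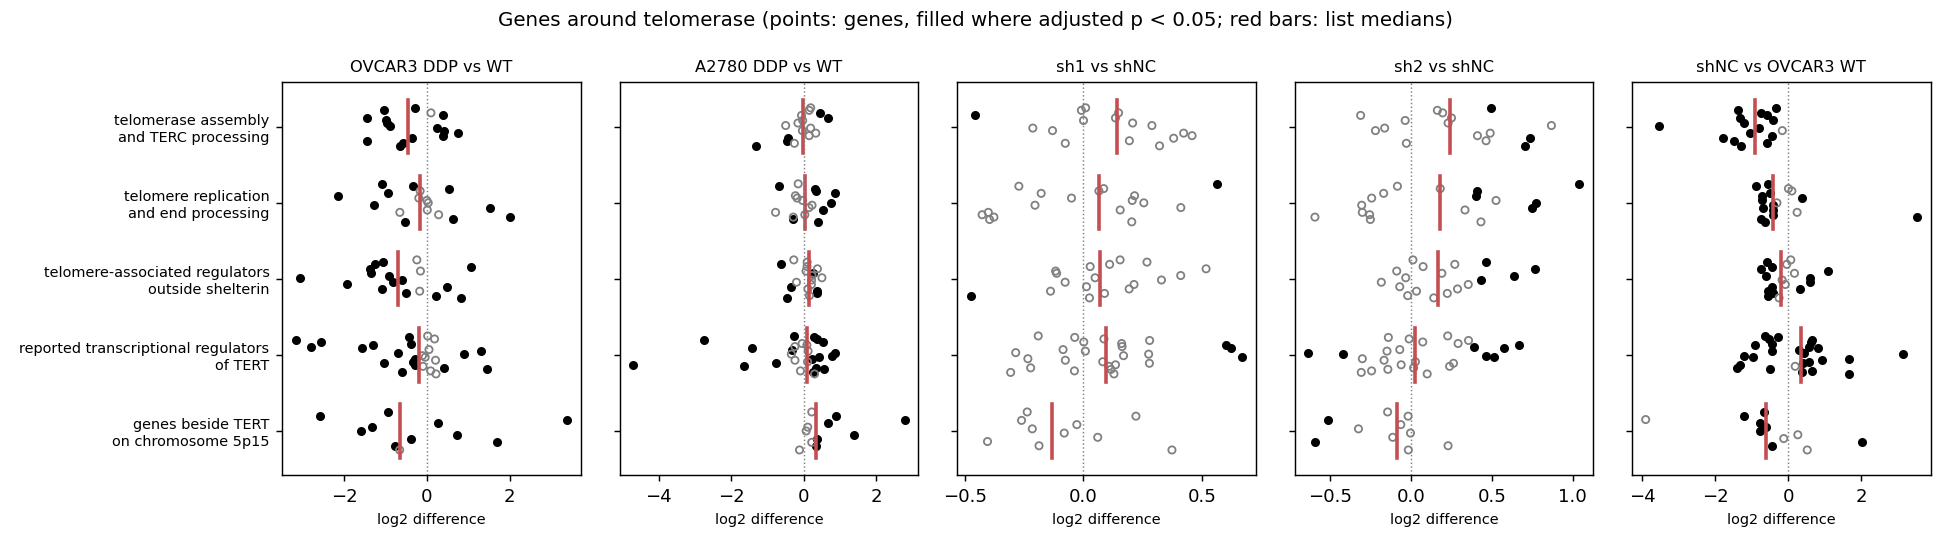
Log2 difference (horizontal axis, scaled separately in each panel) of every tested gene in 5 lists (rows) for 5 comparisons (panels). Filled points passed at adjusted p under 0.05 and red bars are list medians, such as −0.92 for telomerase assembly genes with shNC against parental OVCAR3.

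Among 26 transcription factors reported to act at the TERT promoter, 3 rose with sh1 and none was lower, against 1.96% and 1.85% of all genes: NFKB1 by 0.67, KLF4 by 0.62 and GABPB1 by 0.60. The same 3 rose with sh2, by 0.51, 0.57 and 0.67, out of 5 that rose and 2 that were lower, the MAX partners MNT (−0.63) and MXD1 (−0.42), against 7.23% and 7.04% of all genes. The 2 hairpins were read against the same shNC libraries. GABPB1, a subunit of the ETS-family factor GABP, stood at 23.1 CPM with shNC, 37.0 with sh1 and 39.5 with sh2 (adjusted p = 0.0214 and 0.00482, edgeR). MYC, a factor that reads the E-box motif, stood at 575 CPM in parental OVCAR3, 604 in OVCAR3-DDP, 49.1 in parental A2780 and 83.5 in A2780-DDP. With shNC it stood at 216 CPM, with sh1 at 257 and with sh2 at 322. MYC rose in A2780-DDP by 0.78 (SE 0.10, adjusted p = 4.28e-05, edgeR) and with sh2 by 0.46 (SE 0.11, adjusted p = 0.00685). It did not pass with sh1 (0.17, adjusted p = 0.397, edgeR) or in OVCAR3-DDP (−0.11, adjusted p = 0.335). In A2780-DDP 10 factors rose, against 18% of all genes, and 7 were lower, against 17.3%, led by TFAP2A (−4.70), ETS1 (−2.76) and TFAP2C (−1.66). In OVCAR3-DDP 4 rose and 13 were lower, against 33.4% and 35.2% of all genes, with ETS1 (−3.17) and HIF1A (−2.79) among the latter. With shNC against parental OVCAR3, 14 rose and 11 were lower, against 25.1% and 26.5% of all genes, with MXD1 at 3.15 among the former. Whether any of these factors bears on TERT was not tested.
Genes on chromosome 5p15 near TERT were higher in A2780-DDP in 6 of 11 tested cases and lower in none, against 18% and 17.3% of all genes (median 0.35, all genes 0). IRX4 (2.78), NKD2 (1.39) and CLPTM1L (0.88), the last next to TERT, led them, all with adjusted p of at most 1.42e-05 in edgeR. In OVCAR3-DDP CLPTM1L was lower (−2.58) and NKD2 higher (0.72), within 4 that rose and 6 that were lower, against 33.4% and 35.2% of all genes. With the ADAR1 hairpins none of 10 neighbours rose: 0 passed with sh1, against 3.81% of all genes, and 2 were lower with sh2, against 7.04%, TPPP (−0.59) and LPCAT1 (−0.51). With shNC against parental OVCAR3, 1 rose (TPPP, 2.01) and 6 were lower, against 25.1% and 26.5% of all genes. The copy number of the region cannot be read from these counts.

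Across the 14 libraries, the protein-coding genes whose log2 levels followed TERT most closely were FAXC (Pearson r = 0.910), SRPK1 and PTCD2 (both 0.908), PHLPP2 (0.903) and WWOX (0.901), out of 13277 genes ranked. The points share line and library set, and r is given as a description. All 5 had their lowest group mean with shNC, for example FAXC with 3.35 CPM against 19.6 in A2780-DDP. As the genes were ranked by likeness to TERT in these same libraries, this follows largely from the ranking and is no separate result. Within the members, r with TERT was 0.813 for TERF2, 0.677 for ACD, 0.608 for TERF2IP, 0.593 for TINF2, 0.550 for TERF1, −0.08 for DKC1 and −0.49 for POT1. For ADAR it was 0.104.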

How the data were processed

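The deposited data were 1 file of gene counts per library, raw and not normalized, made by the authors with FastQC 0.11.9, STAR 2.7.8a, SAMtools and HTSeq 2.0.3 on GRCh38.p13, per the submitters' processing notes. Total RNA was used per the labels' protocols. Neither the strand setting nor the annotation release nor the layout of the reads is given in the sources used here. The 5 summary lines after the 62757 genes stayed out of library sizes. Exon lengths, positions and overlaps came from GENCODE 29, and promoter windows from RefSeq.

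Counts were tested with edgeR 4.0.16 (quasi-likelihood F-test, TMM, filterByExpr at a minimum count of 10, Benjamini-Hochberg over all genes tested, threshold 0.05, 1 mean per group) in R 4.3.3, with intervals at 95%. The 8 libraries without a hairpin formed 1 fit, the 6 hairpin libraries another, and shNC against parental OVCAR3 used all 14. Residual degrees of freedom were 4, 3 and 7. The procedure was tested on simulated data, but the outcome is not given here and no result above rests on it. Alternatives were DESeq2 1.42.0 size factors and Wald test, upper-quartile scaling, 2 other low-count filters, limma-voom (limma 3.58.1), other sets of libraries, the replicate number as a block, and each library left out in turn. CPM, ratios and correlations, the last on log2(CPM + 0.5) for genes with a mean of at least 1 CPM, were computed with Python 3.11.15, numpy 2.4.6 and pandas 2.3.3. Depth per library sets the precision: the lowest TERT count was 37.

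TERT was also left untested for shNC against parental OVCAR3, a test planned at first, because its shNC values had chosen the members. Its tests for sh2 against sh1 and between the parental lines also hold libraries that took part in that choice, and are not independent of it. The members, the 5 gene lists and the tests were chosen with earlier results of these data known. Named were all members, ADAR, up to 3 passing genes per list and direction in a comparison, and the 5 genes most like TERT. MYC was named in further comparisons outside this rule, beside the E-box printed above. The text prints a part of those named from the lists, and the markers named were picked from the 12 carcinoma markers after their values were seen.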

Additional observations from a re-analysis of the deposited data

Results flagged for a closer look

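For 4 of the 7 members tested, the change from parental to DDP libraries differed between the OVCAR3 and A2780 labels. The difference itself was tested with edgeR's quasi-likelihood test and adjusted over all genes, of which 53.8% passed. The difference, OVCAR3 minus A2780 on the log2 scale, was −1.73 for DKC1 (adjusted p = 2.80e-07), −0.47 for TERF1 (0.0151), 1.13 for TERF2 (8.73e-06) and 1.17 for TERF2IP (1.61e-05). The TERF1 call was lost under upper-quartile scaling and in the fit of all libraries. DKC1 was lower in both OVCAR3-DDP libraries than in both parental ones and higher in both A2780-DDP libraries. Of 12 carcinoma markers, 4 reached 1 CPM in OVCAR3-DDP and 10 in parental OVCAR3. KRT7 was near 0 in OVCAR3-DDP, KRT8 stood at 403 CPM and WT1 at 19.0, and the part of these marker differences was not tested.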

How the results depend on the processing

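Of 800 alternative values for 64 log2 results, 732 kept their direction and side of the threshold, 34 lost a call, 11 gained one, 20 changed sign and 3 values without a test moved by more than their spread. Calls for sh2 against shNC, 1 in the report, numbered 0 with upper-quartile scaling, no low-count filter or the replicate block, and 2 with a mean of at least 1 CPM, DESeq2's Wald test or the fit of all libraries. The replicate block changed no other call. Over the group pairs checked, deviations of same-numbered libraries correlated from −0.28 (sh1 and sh2) to 0.49 (parental OVCAR3 and A2780-DDP), with −0.22 for the A2780 groups, −0.14 for OVCAR3 DDP and WT, 0.05 for shNC and sh1 and −0.03 for shNC and sh2. As the labels give no link and not every pair correlated above 0.1, the libraries were taken to share only a number. Leaving out 1 library gave 4 to 6 calls in OVCAR3, 1 to 4 in A2780, 3 to 4 between lines, 6 to 6 between parental lines, 0 to 2 with sh1, 0 to 0 with sh2, 0 to 1 for sh2 against sh1 and 4 to 5 for shNC against parental OVCAR3. The lone library left is assumed to vary like the other groups.

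Sign changes were all in differences that had not passed, and their cause was not tested. In OVCAR3, TINF2 turned to 0.0368 with DESeq2 size factors and with its Wald test, 0.117 with upper-quartile scaling, 0.0507 with no filter, 0.0023 with a mean of at least 1 CPM and 0.0642 with all libraries. With upper-quartile scaling the difference between lines turned to 0.0242 for TINF2 and 0.0091 for ACD. With 1 library left out, values ran from −0.032 to 0.0162 for TINF2 in OVCAR3 and from −0.183 to 0.0066 for ACD between lines. For sh1 against shNC they ran from −0.112 to 0.209 for TERF1, −0.00715 to 0.0886 for POT1 and −0.370 to 0.211 for ACD. For sh2 against shNC ACD ran from −0.0893 to 0.163, and for sh2 against sh1 from −0.167 to 0.408, where TERT ran from −0.369 to 0.0055. With 37 to 44 TERT counts per shNC library, depth limits the ratios to that group most.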
